A study of Mus musculus with 30 samples.

Results

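Small RNAs of 20 to 24 nt, the size range of mature microRNAs (miRNAs), were examined in mouse serum. They were chosen by length alone, and 5535 of the 21634 unique sequences in the serum count table had 20 to 24 bases. The serum came from adult C57Bl/6J males at 3 months of age. In the MSUS group, pups had been separated from their mothers at unpredictable times over the first 14 days of life while the dams were stressed, and control (CTRL) litters had been left undisturbed. There were 4 libraries per group, CTRL 1, 2, 3 and 5 and MSUS 6, 7, 8 and 10, and each held between 12445867 and 16733257 counts. The sources used here do not say whether each library came from a separate animal or litter, so p-values measure the spread between these samples only.

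A miRNA is cut from a hairpin precursor, is loaded into an Argonaute protein and guides it to messenger RNAs, mostly through pairing of its bases 2 to 8, called the seed. miRNAs that share a seed are therefore treated as a family. In blood, miRNAs are released by blood cells, endothelium, liver and other tissues, and circulate in vesicles or bound to proteins. Serum levels can change with the number of cells that release an RNA or with the RNA each cell releases, and the counts cannot tell these apart.

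The 20 to 24 nt class held 18.3% of all counts. Most of the rest lay in longer RNAs, with 34.6% of counts at 28 to 31 nt and 43.6% at 32 to 34 nt. Within the class, 23 nt and 22 nt sequences held 39.2% and 36.5% of the counts, while 21 nt, 20 nt and 24 nt sequences held 9.29%, 8.35% and 6.67%. Depth was uneven across members. Of the 5535 sequences, 3406 were counted in all 8 libraries, and 1770 exceeded 20 counts in 4 or more libraries and were tested. Those 1770 sequences carried 99.0% of the counts of the class. The other 3765 are described through their sums and were tested only under alternative count filters.

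Uracil was the prevailing first base. U opened 2865 sequences and 88.3% of the counts, A opened 1099 and 5.38%, C opened 1040 and 5.62%, and G opened 528 and 0.718%, while 3 sequences began with an unread base. Outside the most abundant group of sequences with a shared seed, U opened 71.4% of the counts, C 13.8% and A 13.1%. At 25 to 27 nt U opened 66.2% of the counts, while G opened 90.5% at 28 to 31 nt and 96.5% at 32 to 34 nt. No test was made of these differences. The share of U was 63.2% of counts at 21 nt, where A reached 19.9%, and 95.4% at 23 nt, where the most abundant group held 89.9% of the counts.

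Sequences were matched to mouse hairpins of RefSeq (GRCm38.p6) without mismatch, with a start within 2 bases of a mature miRNA. The match took 774 sequences with 28.4% of the counts of the class and named 255 miRNAs. This share covers only miRNAs with an entry in the table used here. Of the matched counts, 93.0% had the start of the mature miRNA, 29.7% were identical to it and 53.4% had the same start but ended earlier. A further 402 sequences were a matched form followed by 1 untemplated base, which was A in 197 and U in 205. Close relatives of abundant sequences were common. Of the 5535 sequences, 2714 differed by 1 base from a member of the same length with at least 10 times its counts, and they held 8.50% of the counts. C-to-A was the most frequent such change, with 776 sequences. Errors in amplification or reading and true variants cannot be told apart in these counts, which carry no molecular identifiers.

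The sequences fell into 1299 groups that shared bases 2 to 8. A single sequence made up 690 of them, and the 10 most abundant groups held 84.3% of the counts. The most abundant, with the seed CCUGUAC, had 484 sequences and 59.3% of the counts, and none of its sequences matched an entry of the table. It was uneven in itself, as its leading sequence held 37.4% of the group and 455 of its 484 sequences lay 1 base from a much more abundant member. In CPM, counts scaled to library sizes corrected by trimmed-mean (TMM) factors, the group stood at 97485, 99120, 151739 and 131731 in CTRL 1, 2, 3 and 5, and at 95205, 73707, 76589 and 154888 in MSUS 6, 7, 8 and 10. MSUS 10 had the highest value of all 8 libraries and the groups overlapped. The log2 fold change of MSUS against CTRL was −0.26 ± 0.28 (SE), with an adjusted p of 0.653 in the quasi-likelihood test of edgeR, the test behind every edgeR value for which no other is named.

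The next groups, except GAGAUGA, were led by known miRNAs. The seed ACCCUGU of miR-10a-5p and miR-10b-5p, encoded in the Hox clusters, held 8.89% of the counts. GUAAACA of the miR-30 family held 4.14%, GAGGUAG of the let-7 family, known for promoting differentiation, held 2.47%, and GAGAUGA, without a match, held 2.19%. AUUGCAC of miR-25-3p and miR-92a-3p, AGCAGCA of miR-16-5p, GAGAACU of the miR-146 family, AGCUGCC of miR-22-3p and UGACCUA of miR-192-5p and miR-215-5p held 2.01%, 1.98%, 1.22%, 1.16% and 0.990%. The deposited forms that led the matched groups among the 5 most abundant are shown with bases 2 to 8 in capitals, because several ended elsewhere than the RefSeq matures.
miR-10b-5p: tACCCTGTagaaccgaatttgt
miR-10a-5p: tACCCTGTagatccgaatttgt
miR-30a-5p: tGTAAACAtcctcgactgga
miR-30a-5p, longer form: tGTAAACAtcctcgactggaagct
miR-30e-5p: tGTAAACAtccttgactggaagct
let-7i-5p: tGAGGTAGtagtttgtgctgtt
let-7a-5p: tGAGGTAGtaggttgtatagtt
let-7f-5p: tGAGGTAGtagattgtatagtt
The miR-10b-5p form was 22 nt long, against 23 nt for the mature at chr2:74726074-74726096 on the plus strand, and forms that ended early made up 95.1% of miR-10b-5p counts. The leading miR-30a-5p form was 20 nt long, against 22 nt at chr1:23272274-23272295 on the plus strand, and it made up 64.8% of its seed group. The let-7 forms were identical to their matures. Members of these families are near-identical, so a single misread base can move a count from one to another.

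Among the miRNAs matched, the 10 most abundant were miR-10b-5p, miR-10a-5p, miR-30a-5p, miR-16-5p, miR-25-3p, miR-22-3p, miR-142a-5p, let-7f-5p, miR-27b-3p and miR-451a. The share of counts identical to the mature differed between them. Of miR-22-3p counts 96.4% were identical to the mature, of miR-25-3p counts 80.1%, of miR-451a counts 16.9% and of miR-10b-5p counts 0.0276%. Only 11.0% of miR-142a-5p counts had the start of the mature, and a 20 nt length made up 80.2% of them.

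The first comparison asked whether the share of counts held by this class differed between MSUS and CTRL. A share is relative, so a change in RNAs of other lengths would also move it, and it does not give an amount in serum. The class made up 18.6%, 16.8%, 24.6% and 22.96% of all counts in CTRL 1, 2, 3 and 5 and 13.2%, 16.4%, 13.7% and 22.2% in MSUS 6, 7, 8 and 10. MSUS 10 lay within the CTRL range and the other MSUS libraries below it. The means were 20.7% ± 3.65 (SD, n = 4) in CTRL and 16.4% ± 4.13 (SD, n = 4) in MSUS, and the difference did not pass a two-sided exact permutation test (p = 0.171, adjusted p = 0.321 over 15 measures). The share of 21 nt was lower in each MSUS library than in each CTRL library, at 2.09% ± 0.377 (SD, n = 4) in CTRL and 1.33% ± 0.229 (SD, n = 4) in MSUS. The exact permutation p was 0.0286, the smallest that 4 against 4 can give, and the adjusted p of 0.214 missed the threshold of 0.05.

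First bases were compared in the same way. C opened 6.03% ± 0.219 (SD, n = 4) of the 20 to 24 nt counts in CTRL and 5.10% ± 0.389 (SD, n = 4) in MSUS, with no overlap between the groups, and the exact permutation p of 0.0286 became 0.214 after adjustment. The share of U was 87.9% ± 0.811 (SD, n = 4) in CTRL and 88.7% ± 1.59 (SD, n = 4) in MSUS, with an exact permutation p of 0.343. The share matched to a miRNA was 28.4% ± 4.29 (SD, n = 4) in CTRL and 28.8% ± 6.01 (SD, n = 4) in MSUS, with an exact permutation p of 0.971, and its direction turned when CTRL 3, CTRL 5, MSUS 7 or MSUS 8 was left out, over a range of −2.19 to 2.28 percentage points. The shares identical to the mature (31.9% and 27.8% of matched counts in CTRL and MSUS) and with an untemplated A (1.62% and 1.57%) or U (2.29% and 2.20%) had exact permutation p-values of 0.171, 0.714 and 0.429.

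Over the 1770 tested sequences, Pearson correlations between libraries on the log2 scale ran from 0.928 to 0.971, as a description, and no pair held identical counts. The mean correlation with the other libraries of the same group exceeded that with the other group for CTRL 1, 2 and 3 and MSUS 6, 7 and 8, by most for CTRL 3 (0.961 against 0.938) and by least for MSUS 6 (0.956 against 0.955). CTRL 5 was closest to MSUS 6 (0.970), and its mean correlation with the other CTRL libraries was 0.946, against 0.953 with the MSUS libraries. MSUS 10 was closest to CTRL 5 (0.961), and its mean correlation was 0.943 with the other MSUS libraries and 0.949 with the CTRL libraries.

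No single sequence was called between MSUS and CTRL. Of the 1770 sequences tested, 0 passed an adjusted p of 0.05 in the quasi-likelihood test of edgeR, as did 0% of the 5513 sequences of all lengths. With the exact test of edgeR, DESeq2 and limma voom with quality weights for the libraries, 13, 15 and 8 passed. Without CTRL 5 there were 17, of which 12 were lower and 5 higher in MSUS. In that setting the count minimum could be met by the 4 MSUS libraries alone, but not by the CTRL libraries alone. It thus admitted sequences high in MSUS alone and none high in CTRL alone. Without any 1 of the other libraries 0 passed, and the smallest adjusted p ran from 0.214 to 0.826. At an unadjusted p under 0.05, 222 sequences were lower in MSUS and 3 were higher, or 12.5% and 0.169% of those tested, against 5.97% and 6.44% over all lengths. Every MSUS library lay below every CTRL library for 134 sequences (7.57%), against 3.7% over all lengths. The median log2 fold change was −0.30, against −0.028 over all lengths and 0.39 for the 1056 tested sequences of 28 to 31 nt. This direction depended on the scaling. With library sizes and TMM factors taken from the 20 to 24 nt sequences alone, the median was 0.029, with 69 sequences lower and 43 higher at an unadjusted p under 0.05. The count of lower sequences was 88 without CTRL 3 and 106 without MSUS 8. The count of higher sequences was 24 without CTRL 5, against 0 to 5 without any 1 of the other libraries.

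The 23 nt and 24 nt forms of miR-16-5p, a miRNA abundant in red blood cells that restrains the cell cycle, were among the 5 sequences with the smallest p-values toward lower values in MSUS. The others were unmatched, and those with the seed AGUACUU, the seed AGCAGCA and the seed CUCCCAA had log2 fold changes of −2.10 ± 0.39, −2.87 ± 0.60 and −1.35 ± 0.31 (SE). This unmatched AGCAGCA sequence stood at 1.56 to 4.44 CPM in CTRL and at 0.121 to 1.05 CPM in MSUS. It exceeded 20 counts in the CTRL libraries only. It was thus tested only through the group where it was high, and no conclusion is drawn from its fold change. Each of the 5 had an adjusted p of 0.305 in edgeR. The 5 with the smallest p-values toward higher values were also unmatched, with log2 fold changes between 0.61 and 1.61 and adjusted p-values between 0.391 and 0.454 in edgeR. The forms of this miRNA are shown because they differ only at the 3′ end, beyond the seed in capitals, and had unlike values.
miR-16-5p, 21 nt: tAGCAGCAcgtaaatattggc
miR-16-5p, 22 nt: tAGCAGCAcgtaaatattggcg
miR-16-5p, 23 nt: tAGCAGCAcgtaaatattggcgt
miR-16-5p, 24 nt: tAGCAGCAcgtaaatattggcgtt
The 22 nt form is the RefSeq mature, at chr3:69009918-69009939 on the plus strand and at chr14:61631936-61631957 on the minus strand. The 23 nt form was at 118, 148, 163 and 36.5 CPM in CTRL 1, 2, 3 and 5 and at 20.8, 12.2, 18.2 and 39.0 CPM in MSUS 6, 7, 8 and 10. CTRL 5 lay among the MSUS libraries. Its log2 fold change was −2.37 ± 0.48 (SE), with an adjusted p of 0.305 in edgeR and 0.00282 without CTRL 5, and for the 24 nt form it was 0.0159 without CTRL 5. The 22 nt form had a log2 fold change of −0.52 ± 0.26 (SE), with an adjusted p of 0.428 in edgeR. The 21 nt form, looked at after its values were seen, took 43.2%, 48.4%, 39.2% and 18.3% of miR-16-5p counts in CTRL 1, 2, 3 and 5 and 17.7%, 15.2%, 18.8% and 27.8% in MSUS 6, 7, 8 and 10. CTRL 5 again lay within the MSUS range, and the cause was not tested.

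Among the seed groups, 1 of the 465 tested was called (0.215%). It had the seed AGUACUU, 2 sequences and no match to a miRNA. It stood at 6.25, 16.8, 11.9 and 5.90 CPM in CTRL 1, 2, 3 and 5 and at 1.92, 2.24, 2.62 and 2.43 CPM in MSUS 6, 7, 8 and 10. Each MSUS library was below each CTRL library, at low counts. The log2 fold change was −2.15 ± 0.37 (SE), with an adjusted p of 0.0257 in edgeR. The call was lost with TMM factors from the class alone (log2 fold change of −1.83, adjusted p of 0.224 in edgeR) and without CTRL 2, CTRL 3 or any 1 of the MSUS libraries, with adjusted p-values of 0.0776, 0.130, 0.184, 0.221, 0.0867 and 0.0712 for CTRL 2, CTRL 3 and MSUS 6, 7, 8 and 10. With 1 library left out its log2 fold change ran from −2.33 to −1.80. Over the other alternatives its adjusted p ran from 3.41e-05 in DESeq2 to 0.0499 with no count filter. At an unadjusted p under 0.05, 71 seed groups (15.3%) were lower in MSUS and 1 was higher, and with scaling on the class alone 18 were lower and 22 higher. The count of lower groups was 28 without CTRL 3 and 35 without MSUS 8. Without CTRL 5, 17 groups were higher and 70 lower at an unadjusted p under 0.05, and 0 to 4 were higher without any 1 of the other libraries. In its absence, 21 groups passed an adjusted p of 0.05, 15 lower and 6 higher, against 1 without CTRL 1 and 0 without any 1 of the other libraries. Without CTRL 5 the count minimum again admitted groups high in MSUS alone and none high in CTRL alone.

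Of the 10 most abundant seed groups, AGCAGCA and UGACCUA had no overlap between MSUS and CTRL. Over all 465 tested groups 74.8% were lower in MSUS. The share of them without overlap was not counted, so no conclusion is drawn from the lack of overlap in single groups. AGCAGCA stood at 4324, 5032, 6012 and 3663 CPM in CTRL 1, 2, 3 and 5 and at 2388, 2103, 2030 and 3543 CPM in MSUS 6, 7, 8 and 10, with a log2 fold change of −0.92 ± 0.25 (SE) and an adjusted p of 0.167 in edgeR, or 0.0400 without CTRL 5. MSUS 10 came close to CTRL 5. UGACCUA had a log2 fold change of −0.72 ± 0.24 (SE), with an adjusted p of 0.224 in edgeR. The miR-10 seed ACCCUGU was at 0.13 ± 0.25 (SE) on the same scale, with an adjusted p of 0.822 in edgeR. After AGUACUU, the groups with the smallest p-values toward lower values in MSUS were those with the seed AGCAGCC, whose 7 sequences each lay 1 base from a much more abundant one, the seed UAGCAGC of sequences matched to miR-16-5p, the seed CCAAUAU of miR-16-2-3p and AGCAGCA. In this order, those before AGCAGCA had log2 fold changes of −1.09 ± 0.26, −1.59 ± 0.40 and −1.07 ± 0.28 (SE), without overlap between MSUS and CTRL. Each had an adjusted p of 0.167 in edgeR, and of 0.0246, 0.0400 and 0.0405 without CTRL 5. As miR-16-5p held 94.3% of AGCAGCA counts, AGCAGCA and UAGCAGC largely count the same miRNA and are not separate results. The seed AGCAGCC differs from AGCAGCA in its last base only, and whether it holds misread copies of miR-16-5p was not tested. The groups with the smallest p-values toward higher values in MSUS were those with the seed CCCGCGG, the seed AAGACGG, the seed GCGGCGG, the seed CUACAGU of miR-139-5p and the seed GGGGUCG, with log2 fold changes between 0.70 and 1.40 and adjusted p-values between 0.285 and 0.359 in edgeR. CCCGCGG, with the largest of these, stood at 7.75 CPM in MSUS 7, against 0.954 to 1.87 CPM in the other MSUS libraries and 0.485 to 1.44 CPM in CTRL. Without CTRL 1, MSUS 6, MSUS 7 or MSUS 10 it did not reach the count minimum. Without CTRL 5, GCGGCGG was at 1.58 with an adjusted p of 0.0400 in edgeR. CTRL 5 held its highest CTRL value, at 4.48 CPM, so leaving it out widens the difference by construction.

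Summed per miRNA, 0% of the 151 miRNAs tested were called by the quasi-likelihood test of edgeR, and the smallest adjusted p was 0.0761. The exact test of edgeR, DESeq2 and limma voom called 14, 11 and 12. At an unadjusted p under 0.05, 41 miRNAs (27.2%) were lower in MSUS and 1 was higher. The count of higher miRNAs was 3 without CTRL 1 or CTRL 5, 2 without CTRL 2 and 0 without MSUS 7. The median log2 fold change was −0.32, and it was 0.011 with scaling on the class alone, where 13 were lower and 10 higher at an unadjusted p under 0.05. Library totals without TMM gave 8 calls and the absence of CTRL 5 gave 15, of which 12 were lower and 3 higher. The absence of any 1 of the other libraries gave 0 calls, with a smallest adjusted p between 0.0561 and 0.273. Without CTRL 3, 19 miRNAs were lower at an unadjusted p under 0.05, and without MSUS 8 there were 22.

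The miRNAs with the smallest p-values toward lower values in MSUS were miR-322-3p, miR-365-3p, miR-16-2-3p, let-7d-3p and miR-16-5p. Their mature sequences from RefSeq share no seed and are shown with the seed in capitals.
miR-322-3p: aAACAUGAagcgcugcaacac
miR-365-3p: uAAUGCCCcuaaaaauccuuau
miR-16-2-3p: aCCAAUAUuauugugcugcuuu
let-7d-3p: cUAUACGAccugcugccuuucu
miR-16-5p: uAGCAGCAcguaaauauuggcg
miR-322-3p, at chrX:53054269-53054289 on the minus strand, stood at 5.83, 5.27, 6.34 and 0.498 CPM in CTRL 1, 2, 3 and 5 and at 0.137, 1.33, 0.477 and 0.162 CPM in MSUS 6, 7, 8 and 10. CTRL 5 lay within the MSUS range, so the groups overlapped. Its log2 fold change was −3.01 ± 0.72 (SE), with an adjusted p of 0.0761 in edgeR and 0.000256 without CTRL 5, and without CTRL 1, CTRL 2, CTRL 3 or MSUS 7 it did not reach the count minimum. miR-365-3p, with 1 of its loci at chr11:79726467-79726488 on the plus strand, stood at 4.08, 2.84, 3.57 and 2.56 CPM in CTRL and at 1.37, 1.57, 1.35 and 1.38 CPM in MSUS, in the same order of libraries. The groups did not overlap, and the log2 fold change was −1.20 ± 0.29 (SE) with an adjusted p of 0.0761 in edgeR. miR-16-2-3p, the other arm of a miR-16 hairpin, at chr3:69009960-69009981 on the plus strand, and let-7d-3p, at chr13:48536024-48536045 on the minus strand, had log2 fold changes of −1.02 ± 0.26 and −0.92 ± 0.25 (SE), each with an adjusted p of 0.0816 in edgeR. miR-16-5p was the only abundant miRNA among the 5, at 4080, 4770, 5707 and 3454 CPM in CTRL and 2230, 1974, 1906 and 3347 CPM in MSUS. Each MSUS library lay below each CTRL library, with a log2 fold change of −0.93 ± 0.25 (SE) and an adjusted p of 0.0816 in edgeR. Without CTRL 5, the adjusted p in edgeR was 0.0255 for miR-365-3p, miR-16-2-3p and miR-16-5p and 0.0139 for let-7d-3p. None of them passed without any 1 of the other libraries, among them CTRL 3, without which the smallest adjusted p of any miRNA was 0.273.

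Toward higher values in MSUS, the smallest p-values were those of miR-1943-5p, miR-139-5p, miR-501-3p, miR-149-5p and miR-206-3p, the last known from skeletal muscle. miR-1943-5p stood at 0.541, 0, 0.219 and 2.35 CPM in CTRL 1, 2, 3 and 5 and at 2.67, 4.12, 1.99 and 3.25 CPM in MSUS 6, 7, 8 and 10. CTRL 5 exceeded MSUS 8, and the other CTRL libraries were near 0. The log2 fold change was 1.96 ± 0.69 (SE), with an adjusted p of 0.120 in edgeR, and 3.48 with an adjusted p of 0.000786 without CTRL 5. Without CTRL 5, miR-1943-5p exceeded 20 counts in the MSUS libraries only. It was then tested only through the group where it was high, and no conclusion is drawn from that value. miR-139-5p stood at 5.17, 1.04, 2.33 and 8.03 CPM in CTRL and 7.26, 7.03, 7.63 and 10.8 CPM in MSUS. CTRL 5 exceeded MSUS 6, 7 and 8, and the other CTRL libraries lay below all MSUS libraries. It had a log2 fold change of 0.98 ± 0.46 (SE) and an adjusted p of 0.178 in edgeR, and 1.52 with an adjusted p of 0.0255 without CTRL 5. miR-149-5p was at 0.42 ± 0.28 (SE), with an adjusted p of 0.335 in edgeR, and at 0.78 with an adjusted p of 0.0431 without CTRL 5. CTRL 5 held the highest CTRL value of miR-139-5p and of miR-149-5p, so leaving it out widens their differences by construction. Neither passed without any 1 of the other libraries.

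Markers of the cells that release miRNAs into blood were taken as lists. Over all 151 miRNAs tested, 80.1% were lower in MSUS and 27.2% were lower at an unadjusted p under 0.05. Of 7 listed red blood cell miRNAs, 6 were measured, all 6 were lower in MSUS, 5 at an unadjusted p under 0.05 and 0 at an adjusted p of 0.05 in the quasi-likelihood test of edgeR, with a median log2 fold change of −0.64, against −0.32 over all miRNAs. miR-16-5p and miR-144-3p passed in the exact test of edgeR, DESeq2 and limma voom, and miR-16-5p also by library totals. The summed level of these 6 was 8787, 9489, 12644 and 9219 CPM in CTRL 1, 2, 3 and 5 and 5845, 4889, 4755 and 8309 CPM in MSUS 6, 7, 8 and 10, and miR-16-5p was the most abundant of them. miR-486a-5p was not analysed here. With scaling on the class alone the median of the 6 was −0.32. miR-451a, made in the red cell lineage, had a log2 fold change of −0.62 ± 0.26 (SE), and miR-144-3p, from the same cluster, one of −1.01 ± 0.33 (SE), with adjusted p-values of 0.145 and 0.0894 in edgeR. The adjusted p of miR-144-3p was 0.0255 in edgeR without CTRL 5, which held its lowest CTRL value, at 166 CPM. The log2 ratio of miR-451a to miR-23a-3p, an index of red cell RNA in serum that needs no scaling, was 3.61, 4.03, 4.33 and 4.44 in CTRL and 4.16, 3.08, 3.39 and 4.50 in MSUS. The groups overlapped and the exact permutation p was 0.400. The part of red cell RNA in the lower values of MSUS was not tested.

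Of the 4 listed hepatocyte miRNAs, 2 were measured and both were lower at an unadjusted p under 0.05, against 27.2% of all miRNAs. Their median log2 fold change was −0.76, and −0.43 with scaling on the class alone. miR-122-5p was not analysed here. miR-192-5p stood at 1705, 1125, 1562 and 1275 CPM in CTRL and 696, 961, 567 and 991 CPM in MSUS, without overlap, with a log2 fold change of −0.82 ± 0.24 (SE) and an adjusted p of 0.0889 in edgeR, or 0.0431 without CTRL 5, and it passed in the exact test of edgeR, DESeq2 and limma voom. miR-194-5p was at −0.69 ± 0.30 (SE), with an adjusted p of 0.148 in edgeR. The 9 measured members of the let-7 family, of 11 listed, all had lower values in MSUS, against 80.1% of all miRNAs, with 5 at an unadjusted p under 0.05 and 0 at an adjusted p of 0.05 in the quasi-likelihood test of edgeR. let-7f-5p passed in the exact test of edgeR, in DESeq2 and by library totals. let-7e-5p had an adjusted p of 0.0295 in edgeR without CTRL 5, which held its lowest CTRL value, at 5.05 CPM. The family median log2 fold change was −0.53, and −0.20 with scaling on the class alone, where let-7b-5p turned to 0.21. let-7f-5p was the most abundant of them, with a log2 fold change of −0.95 ± 0.28 (SE) and an adjusted p of 0.0889 in edgeR.

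Of 5 platelet and endothelium miRNAs, 4 were tested, 3 lower and 1 higher, with 0 at an unadjusted p under 0.05, and the median log2 fold change of −0.28 became 0.042 with scaling on the class alone. Of 5 leukocyte miRNAs, miR-142a-5p and miR-146a-5p were tested, at log2 fold changes of −0.57 ± 0.22 and −0.20 ± 0.29 (SE), with adjusted p-values of 0.136 and 0.677 in edgeR, while miR-142a-3p and miR-155-5p stayed below 1 CPM. Of 3 neuron miRNAs, miR-9-5p and miR-128-3p were tested, at −0.31 ± 0.63 and −0.39 ± 0.24 (SE), and of 5 muscle miRNAs only miR-206-3p, at 0.56 ± 0.39 (SE), with adjusted p-values of 0.766, 0.314 and 0.358 in edgeR. miR-9-5p stood at 11.8 CPM in CTRL 2, against 0.924 to 3.18 CPM in the other CTRL libraries. Its log2 fold change ran from −0.62 to 0.96 with 1 library left out. Of the miRNAs of earlier work on MSUS, miR-200b-3p was at most 0.601 CPM and miR-672-5p at most 0.583 CPM in any library, too low for a difference to be detectable at this depth, and miR-375-5p had no matching sequence. miR-375-3p and miR-466c-5p were not analysed here, and neither were miR-126a-5p, miR-150-5p, miR-1a-3p, miR-133a-3p and miR-124-3p of the other lists.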

How the data were processed

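Serum RNA was made into libraries with a TruSeq small RNA kit and sequenced on an Illumina HiSeq. The authors trimmed adapters with cutadapt 1.14, merged repeat runs and deposited raw counts per unique sequence, without molecular identifiers. The deposited counts hold no value of 1 and no sequence summing to less than 8; the filter behind this is not given in the sources used here. Of the 5535 sequences of 20 to 24 nt, 53 hold an unread base. Sperm tables were not used here.

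Counts were tested with edgeR 4.0.16 (glmQLFit, glmQLFTest, R 4.3.3), TMM factors over the whole serum table (0.873 to 1.13), group as the only term, a minimum exceeding 20 counts in 4 or more libraries, and Benjamini-Hochberg adjustment over all tested sequences, seed groups or miRNAs. SE is the log2 fold change over the square root of F. CPM uses TMM-scaled library sizes. For shares, exact permutation tests (two-sided, scipy 1.17.1) were used with adjustment over 15 measures. The fit over sequences was tested on simulated data. DESeq2 1.42.0, limma 3.58.1 (voom with quality weights for the libraries), other scalings, filters, windows and matches, and leaving out each library were alternatives. Named items were the 10 most abundant and the 5 with the smallest p in each direction, plus marker lists. Members and lists were chosen with earlier results of these data known. Sequences without a RefSeq match are not printed. Counting error only is covered by the depth of each library.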

Additional observations from a re-analysis of the deposited data

Results flagged for a closer look

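Of 186 groups of 4 libraries examined, 14 held a library set apart from the other 3 by Dixon's criterion, and chance sets apart about 1 in 20 groups. MSUS 10 had 10.1% of all counts at 23 nt and 1.59% at 24 nt, against at most 5.50% and 0.972% in the other MSUS libraries. CTRL 3 and CTRL 5 were near it, with 9.89% and 9.59% at 23 nt and 1.69% and 1.61% at 24 nt. In the same library, a 23 nt sequence of the CCUGUAC group, of rank 3 in abundance, reached 30917 CPM, against 13032 to 15145 CPM in the other MSUS libraries and at most 23471 CPM in CTRL. Among the MSUS libraries, MSUS 6 had the lowest miR-10b-5p, at 8012 CPM against 10660 to 11018 CPM, and the lowest 22 nt form of it, at 7551 CPM against 10082 to 10411 CPM. CTRL 3 and CTRL 5 were lower still in both, with miR-10b-5p at 7985 and 7111 CPM and the 22 nt form at 7498 and 6694 CPM.

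The other cases lay at low levels. CTRL 5 had 1.71 CPM of an unmatched 23 nt sequence with the seed GGGGUCG, against at most 0.347 CPM in the other CTRL libraries and 1.46 to 2.36 CPM in MSUS. MSUS 6 had 7.39 CPM of an unmatched 20 nt sequence with the seed AAGACGG. MSUS 7 had 4.84 CPM of an unmatched 24 nt sequence with the seed GCGGCGG, 7.75 CPM of the seed group CCCGCGG and 1.57 CPM of miR-365-3p. MSUS 10 had 4.87 CPM of the 24 nt form of miR-16-5p and 10.8 CPM of miR-139-5p. CTRL 3 had 24.5 CPM of miR-16-2-3p and 23.2 CPM of its seed group CCAAUAU. The causes were not tested.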

How the results depend on the processing

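Calls depended on the test and on single libraries. Sequences called at an adjusted p of 0.05 numbered 0 in the quasi-likelihood test, 13 in the exact test of edgeR, 15 in DESeq2, 8 in limma voom and 0 to 17 with 1 library left out. Seed groups called numbered 1, then 2, 2 and 13 in the same other tests, 0 with scaling on 20 to 24 nt alone and 0 to 21 with 1 library left out. For miRNAs the counts were 0, then 14, 11 and 12, with 8 by library totals, 2 for sequences identical to the mature and 0 to 15 with 1 library left out. The highest count in each of these 3 ranges was without CTRL 5. With 1 library left out, the count minimum could be met by the full group alone, but not by the reduced group alone. At an unadjusted p under 0.05, lower sequences numbered 222, but 353 in limma voom, 69 with scaling on the class alone, 384 with no count filter and 88 to 287 with 1 library left out. Lower seed groups numbered 71, but 18 with scaling on the class alone, 119 with no count filter and 28 to 92 with 1 library left out. Lower miRNAs numbered 41, but 13 with scaling on the class alone and 19 to 46 with 1 library left out. Higher sequences numbered 3, but 5 in DESeq2, 23 in limma voom, 1 by library totals, 43 with scaling on the class alone, 40 with no count filter, 10 with the default filter of edgeR and 0 to 24 with 1 library left out. Higher seed groups numbered 1, but 5 in DESeq2, 18 in limma voom, 3 with DESeq2 size factors in edgeR, 22 with scaling on the class alone, 20 with no count filter, 3 with the default filter, 2 with 21 to 23 nt and 0 to 17 with 1 library left out. Higher miRNAs numbered 1, but 2 in the exact test, 4 in limma voom, 2 with DESeq2 size factors, 10 with scaling on the class alone, 3 with no count filter, 2 with the default filter, 2 with 21 to 23 nt, 0 for sequences identical to the mature and 0 to 3 with 1 library left out.

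Scaling on the class alone turned the median log2 fold changes to 0.029 for sequences, 0.052 for seed groups and 0.011 for miRNAs. By its construction this scaling removes a shift shared by the class. It also turned the sequences of rank 1, 2, 3 and 8 in abundance, all of the CCUGUAC group, to 0.062, 0.038, 0.24 and 0.040, the leading miR-30a-5p form to 0.15 and the leading GAGAUGA sequence to 0.24. Seed groups turned to 0.062 for CCUGUAC, to 0.088 for GUAAACA, to 0.22 for GAGAUGA, to 0.26 for GAGAACU and to 0.056 for AGCUGCC. The miRNAs turned were miR-30a-5p (0.14), miR-22-3p (0.056), miR-24-3p (0.098), miR-146a-5p (0.11) and let-7b-5p (0.21). In limma voom the signs turned for the leading forms of miR-10b-5p (−0.016) and miR-10a-5p (−0.14), for the seed ACCCUGU (−0.095) and for miR-10b-5p (−0.11), miR-10a-5p (−0.021), miR-27b-3p (−0.087) and miR-223-3p (−0.011). By library totals they turned for the leading miR-10b-5p form (−0.032), miR-10b-5p (−0.038) and miR-27b-3p (−0.044), and for sequences identical to the mature for miR-10b-5p (−0.26) and miR-10a-5p (−0.21). None of these features was called in the quasi-likelihood test. The causes were not tested.

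With 1 library left out, signs also turned for the sequence of rank 3 in abundance (−0.42 to 0.074), the leading forms of miR-10b-5p (−0.11 to 0.16), miR-10a-5p (−0.045 to 0.53) and miR-30a-5p (−0.26 to 0.022) and the leading GAGAUGA sequence (−0.24 to 0.19). The same held for the seeds ACCCUGU (−0.018 to 0.24), GAGAUGA (−0.25 to 0.17) and GAGAACU (−0.18 to 0.11), and for miR-10b-5p (−0.11 to 0.15), miR-10a-5p (−0.050 to 0.53), miR-27b-3p (−0.14 to 0.11), miR-223-3p (−0.045 to 0.18) and miR-9-5p (−0.62 to 0.96). Differences in shares turned for miRNA-matched counts (−2.19 to 2.28 percentage points), first base A (−0.528 to 0.385) and untemplated A (−0.0963 to 0.0229). First base A was at 0.459 without the 5 most abundant sequences, and first base U at −0.0466 by distinct sequences. No paired analysis was possible because the MSUS and CTRL serum libraries share no replicate number. Some low features did not reach the count minimum in every setting and have no value there: the seed group CCCGCGG, miR-322-3p, miR-206-3p and unmatched 23 nt sequences with the seed GGGGUCG and the seed AGCAGCA with 1 library left out, and several miRNAs and GCGGCGG by narrower matches or lengths. Depth limits what can be said of the sequences below the count minimum. These were tested only with no count filter or with the default filter of edgeR.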
